A study of Mus musculus with 8 samples.

Results

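The 10 genes described here mark macrophages and the wider leukocyte lineage: Spi1, Ptprc, Cd53, Adgre1, Cd14, Cd68, Lyz2, Laptm5, Mpeg1 and Aif1. They were listed by name as identity genes of these cells, with earlier results of these data known although the rule itself uses no measured value, and are 10 of the 31053 genes in the table of counts. All 10 had counts in BAT (brown adipose tissue), and 9 of the 10 were higher in every Ucp1Δ/Δ mouse than in every WT mouse, against 14.4% of the genes tested. Cd68 had the largest fold difference, with 2.81 ± 1.26 CPM in WT mice and 69.5 ± 26.5 CPM in Ucp1Δ/Δ mice (mean ± SD, n = 4 each). Cd14 was the exception, with 2.53 ± 1.09 CPM in WT and 3.64 ± 2.12 CPM in Ucp1Δ/Δ mice. CPM is the count of a gene scaled to the size of its library, with library sizes corrected by TMM.

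RNA of BAT was sequenced in bulk from 4 WT and 4 Ucp1Δ/Δ mice of the C57BL6/J strain, each library from a separate mouse. Ucp1Δ/Δ mice, named ATGLKO in the sample titles, lack the lipase ATGL, encoded by Pnpla2, in cells where the Ucp1 promoter drives the Cre recombinase, that is, in thermogenic adipocytes. They were made by crossing Pnpla2 fl/fl mice [B6N.129S-Pnpla2tm1Eek/J] with Ucp1Cre mice [B6.FVB-Tg(Ucp1-cre)1Evdr/J], whereas whether the WT mice carried the floxed allele or the Cre is not given in the sources used here. The Cre is not directed at macrophages. The methods give male mice unless stated otherwise, and the labels an age of 10 weeks for all 8, while the text of the study gives a younger age for this experiment. The stromal vascular fraction is given as the cell type in the labels, but brown adipocyte transcripts were abundant in every library: the summed CPM of 10 brown adipocyte markers ranged from 13370 to 22083 in WT and from 10031 to 14972 in Ucp1Δ/Δ mice.

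Macrophages are tissue phagocytes that engulf dying cells, lipid and microbes, and adipose tissue holds resident populations that expand when adipocytes are stressed or die. Their identity is set by the transcription factor PU.1, which binds purine-rich elements in the promoters of many myeloid genes, and is read out by surface receptors, lysosomal proteins and secreted enzymes. Some of the 10 genes, such as Adgre1 and Cd68, are used as markers of macrophages, whereas Ptprc, Cd53 and Laptm5 are shared by most leukocytes. In bulk tissue, more cells of a type and more RNA per cell cannot be told apart.

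Because PU.1, the product of Spi1, is itself among the 10 genes, the promoters of the others were searched for its core motif, GAGGAA, on both strands. Promoter sequences of 300 bases were available from RefSeq (GRCm38.p6) for 7 of the 10 genes, with 8 promoters in all because Ptprc has a pair that overlaps, and not for Spi1, Adgre1 and Cd14. The core was present in 5 of the 8 promoters, those of Aif1, Cd53, Cd68 and Laptm5 and 1 of the Ptprc pair, and in 28.3% of all 32817 promoters of the same length. The promoters of Lyz2 and Mpeg1, which also rose in Ucp1Δ/Δ mice, held none. The windows around the core are shown for 4 genes that rose in Ucp1Δ/Δ mice, from 5′ to 3′ on the strand of the gene, with GAGGAA and its reverse complement TTCCTC in capitals. The windows are Cd53 at chr3:106790120-106790249 (minus strand), Laptm5 at chr4:130913216-130913345 (plus strand) and Aif1 at chr17:35176023-35176152 (minus strand), each from 100 bases before to 30 bases after the annotated start site, and Cd68 at chr11:69666271-69666420 (minus strand), from 250 to 101 bases before it.
Cd53: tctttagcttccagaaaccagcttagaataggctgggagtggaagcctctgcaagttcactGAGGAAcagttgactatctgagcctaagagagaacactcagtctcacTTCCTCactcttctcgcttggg
Laptm5: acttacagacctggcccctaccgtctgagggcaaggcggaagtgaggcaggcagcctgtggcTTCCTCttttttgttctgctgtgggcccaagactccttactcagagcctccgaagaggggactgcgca
Aif1: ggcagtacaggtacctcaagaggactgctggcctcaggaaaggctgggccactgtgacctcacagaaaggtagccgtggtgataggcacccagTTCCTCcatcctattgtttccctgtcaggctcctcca
Cd68: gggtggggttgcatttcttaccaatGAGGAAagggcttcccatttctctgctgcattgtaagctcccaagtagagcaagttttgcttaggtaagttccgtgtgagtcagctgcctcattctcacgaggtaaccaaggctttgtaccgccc
The Cd53 window held the core once in each orientation, and the other 3 windows held it once. The Cd68 promoter held it again outside the window shown, at base 30 after the start site. An AP-1 site, TGANTCA, was present in the Cd68 promoter and no other of the 8, against 7.81% of all promoters, and a TATA box, TATAAA, in the promoters of Laptm5 and Ptprc, against 13.6%. These matches describe the letters only.

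The depth limited the genes at low levels. Total counts ranged from 2017697 to 3115956 in WT and from 2240612 to 2941799 in Ucp1Δ/Δ mice, of which mitochondrially encoded genes took 38.4% to 45.6%. On these totals, before the TMM correction, 3 counts corresponded to between 0.963 and 1.49 CPM. Pnpla2, the targeted gene, was at 2913 ± 191 CPM in WT and 474 ± 59.2 CPM in Ucp1Δ/Δ mice, a log2 fold change (log2FC) of -2.62 (SE 0.17, adjusted p = 1.97e-07, edgeR quasi-likelihood test, Benjamini-Hochberg adjusted). With edgeR's default filter on low counts, 8930 genes were tested, of which 13.3% were called higher and 7.63% lower in Ucp1Δ/Δ mice (adjusted p below 0.05). Of the 10 genes, 9 passed this filter, and only Lyz2 passed the filter's minimum in all 4 WT mice. The other 8 passed it through the Ucp1Δ/Δ mice, so the number called among those that passed is not a measure of how many could have differed. With a filter of at least 1 count in any mouse, all 10 genes were tested and 9 of 10 were called higher, against 9.81% of the 16617 genes tested. When 10 counts were required of every mouse, only Lyz2 and Ptprc could be tested, and both were called, against 10.8% of the genes. The median log2FC of the 10 genes was 3.09 at the filter of 1 count, against 0.08 over all genes tested.

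**Figure D1:**
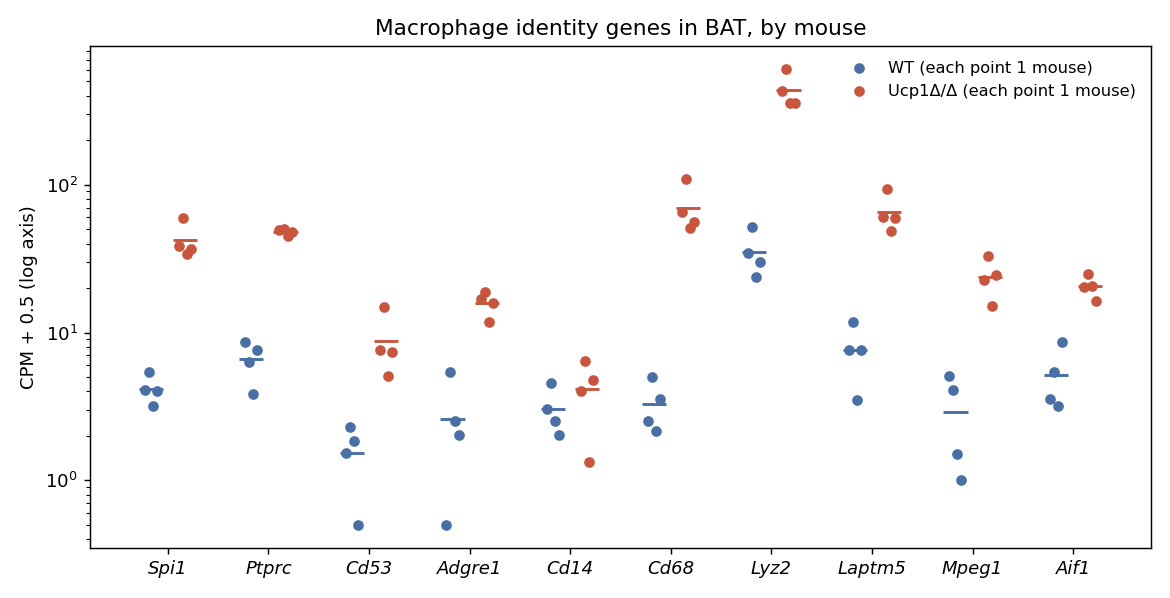
CPM plus 0.5 of each of the 10 genes (log axis) in 4 WT and 4 Ucp1Δ/Δ mice, with 1 point per mouse and a line at the mean of each genotype. The genotypes do not overlap for 9 genes, and overlap for Cd14.

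The transcription factor of the group rose in every Ucp1Δ/Δ mouse. Spi1 (chromosome 2, 91082390 to 91115756, plus strand, mm10) encodes PU.1, required for the development of macrophages and B cells. Spi1 was at 3.57, 4.93, 2.67 and 3.55 CPM in WT mice 1 to 4 and at 38.2, 59.1, 33.4 and 36.1 CPM in Ucp1Δ/Δ mice 1 to 4. The lowest Ucp1Δ/Δ mouse was far above the highest WT mouse, and the fitted difference was 11.4-fold (log2FC 3.51, SE 0.28, adjusted p = 6.92e-07). WT counts were low, between 7 and 11 per mouse, so the WT level carries most of the counting error of this fold. Among 14 other transcription factors of myeloid cells, 10 were tested, 7 of which passed the filter's minimum in all 4 WT mice. Of the 10, 6 were called higher, against 13.3% of all genes. Irf8, which directs the monocyte lineage, went from 3.74 ± 1.66 to 20.5 ± 1.86 CPM (log2FC 2.51, SE 0.30, adjusted p = 2.60e-05), and Ikzf1, a factor of lymphoid and myeloid cells, had a log2FC of 2.10 (SE 0.41, adjusted p = 0.00174). Maf (log2FC 1.0, SE 0.19) and Klf4 (0.88, SE 0.19) rose less, and each is also expressed outside macrophages. Cebpa and Cebpb, which adipocytes use too, had log2FC of -0.48 (SE 0.20, adjusted p = 0.107) and 0.01 (SE 0.28, adjusted p = 0.989).

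The pan-leukocyte surface genes also separated the genotypes. Ptprc (chromosome 1, 138062861 to 138175708, minus strand) encodes CD45, the receptor phosphatase of nearly all leukocytes. Its CPM was 8.16, 5.82, 3.34 and 7.09 in WT mice 1 to 4 and 49.2, 49.8, 44.3 and 47.2 in Ucp1Δ/Δ mice 1 to 4. Every Ucp1Δ/Δ mouse lay near the same level, with a coefficient of variation of 5.19%, the smallest of the 10 genes, against 34.0% in WT. Counts were 10 to 16 per WT mouse and 106 to 160 per Ucp1Δ/Δ mouse, so counting error is relatively larger in WT. Counts of 106 to 160 vary by more than 5.19% from counting alone, so the small spread does not show that the Ucp1Δ/Δ mice were alike. The difference was 8.0-fold (log2FC 3.0, SE 0.24, adjusted p = 7.62e-07).

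Cd53 (chromosome 3, 106759921 to 106790149, minus strand), a tetraspanin of leukocyte membranes, was measured at 1.02, 1.79, 1.34 and 0 CPM in WT mice and 7.08, 14.3, 4.6 and 6.87 CPM in Ucp1Δ/Δ mice. WT mouse 4 had no count of Cd53, where 3 counts would be 1.42 CPM before the TMM correction. The 4 WT mice together had 10 counts against 93 in the Ucp1Δ/Δ mice. No WT mouse reached the lowest Ucp1Δ/Δ mouse, and the difference was 7.44-fold with the widest error of the 9 genes (log2FC 2.89, SE 0.54, adjusted p = 0.00109).

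Adgre1 (chromosome 17, 57358691 to 57483527, plus strand) encodes F4/80, the classical surface marker of mouse macrophages. WT mice 1 to 4 had 0, 4.93, 2.0 and 1.52 CPM, and Ucp1Δ/Δ mice 16.3, 18.4, 11.3 and 15.5 CPM. Adgre1 was not detected in WT mouse 1, where 3 counts would be 1.49 CPM before the TMM correction. All Ucp1Δ/Δ mice were above the highest WT mouse. The difference was 6.97-fold (log2FC 2.80, SE 0.45, adjusted p = 0.000364). The log2FC ranged from 2.77 to 3.85 over the other tests, scalings and filters and from 2.43 to 3.53 over the fits that each left out 1 mouse, the highest of these without WT mouse 2.

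Cd14, the co-receptor that hands bacterial lipopolysaccharide (LPS) to TLR4, did not follow the others. It was at 2.55, 4.03, 2.0 and 1.52 CPM in WT and at 3.54, 5.91, 0.836 and 4.29 CPM in Ucp1Δ/Δ mice. Ucp1Δ/Δ mouse 3, with 2 counts, was below all 4 WT mice, and the genotypes overlapped. Cd14 was removed by the default filter. At the filter of 1 count its log2FC was 0.52 (SE 0.50, adjusted p = 0.540), and in DESeq2 it was 0.51 (SE 0.63, adjusted p = 0.673). At 23 counts over the WT mice and 41 over the Ucp1Δ/Δ mice, a small difference of Cd14 was not detectable at this depth. Of 11 genes that act with CD14 in the LPS response, 5 were tested, 2 of which passed the filter's minimum in all 4 WT mice. Of the 5, 2 were called higher, against 13.3% of all genes. The genes called were Lbp, which encodes the LPS-binding protein (log2FC 2.69, SE 0.60, adjusted p = 0.00432), and the adaptor Tirap (1.30, SE 0.35, adjusted p = 0.0150). The log2FC of Lbp was 4.25 without WT mouse 4, and the call of Tirap was lost without WT mouse 1 or Ucp1Δ/Δ mouse 4 (adjusted p = 0.0520 in each). At the filter of 1 count, 4 of the 11 were called, against 9.81% of all genes. The adaptor Myd88 was level, with 13.7 ± 4.30 CPM in WT and 13.9 ± 1.90 CPM in Ucp1Δ/Δ mice (adjusted p = 0.999), and Irak4 had a log2FC of 0.65 (SE 0.27, adjusted p = 0.0971). The receptor Tlr4 and its partner Ly96 did not pass the default filter, with 19 and 14 counts over all WT mice against 49 and 41 over all Ucp1Δ/Δ mice.

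The genes of lysosomes and of secreted or pore-forming proteins separated the genotypes too, and Cd68 had the largest log2FC of the 10. Cd68 (chromosome 11, 69664213 to 69666153, minus strand), a glycoprotein of late endosomes and lysosomes, had CPM of 2.04, 4.48, 1.67 and 3.04 in WT mice and 64.4, 108, 50.1 and 55.4 in Ucp1Δ/Δ mice. The counts were 4 to 10 per WT mouse and 120 to 348 per Ucp1Δ/Δ mouse, with no overlap. The difference was 25-fold (log2FC 4.64, SE 0.34, adjusted p = 5.16e-07).

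Lyz2 (chromosome 10, 117277331 to 117282321, minus strand), the lysozyme that macrophages secrete to digest bacterial walls, was at 34.2, 51.1, 23.4 and 29.4 CPM in WT and 430, 608, 358 and 354 CPM in Ucp1Δ/Δ mice. It was the only one of the 10 genes with at least 58 counts in every mouse, and so its WT level is the best measured. The difference was 12.7-fold (log2FC 3.67, SE 0.26, adjusted p = 4.03e-07). Its near copy Lyz1 shares 74 of the 1242 windows of 75 bases in the Lyz2 transcript (5.96%), the length of the reads, so how the counting divided such reads is uncertain. Lyz1 itself was at 1.03 ± 0.69 CPM in WT and 16.4 ± 2.73 CPM in Ucp1Δ/Δ mice (log2FC 3.98, SE 0.38, adjusted p = 3.07e-06). None of the other 9 genes shared a window of this length with another gene.

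Laptm5 (chromosome 4, 130913125 to 130936141, plus strand), a lysosomal membrane protein of leukocytes, was at 7.14, 11.2, 3.01 and 7.09 CPM in WT mice and 59.8, 93.7, 48.5 and 58.8 CPM in Ucp1Δ/Δ mice. All Ucp1Δ/Δ mice exceeded all WT mice by a wide margin. The difference was 9.38-fold (log2FC 3.23, SE 0.31, adjusted p = 4.11e-06). Mpeg1 (chromosome 19, 12460779 to 12465283, plus strand), which encodes the pore-forming protein perforin-2, was at 4.59, 3.58, 1.0 and 0.507 CPM in WT mice and 22.3, 32.7, 14.6 and 24 CPM in Ucp1Δ/Δ mice. WT mice 3 and 4 had 3 and 1 counts of Mpeg1, near the limit of detection, yet the highest WT mouse was still below every Ucp1Δ/Δ mouse. Its difference was 9.95-fold (log2FC 3.32, SE 0.42, adjusted p = 4.62e-05).

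Aif1 (chromosome 17, 35170991 to 35176068, minus strand), which encodes the actin-binding protein IBA1, had the smallest difference of the 9 genes. It was at 3.06, 4.93, 2.67 and 8.11 CPM in WT and 19.8, 24.3, 20.1 and 15.9 CPM in Ucp1Δ/Δ mice. WT mouse 4 was the highest WT mouse and Ucp1Δ/Δ mouse 4 the lowest Ucp1Δ/Δ mouse, and they still did not overlap. The difference was 4.38-fold (log2FC 2.13, SE 0.31, adjusted p = 0.000151).

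**Figure D2:**
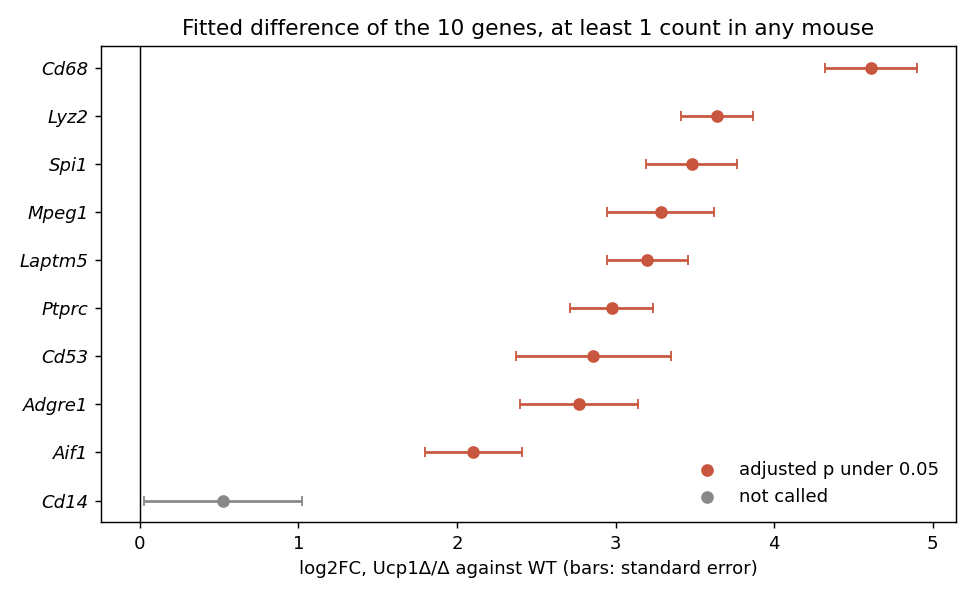
Fitted log2FC of Ucp1Δ/Δ against WT for the 10 genes at the filter of at least 1 count in any mouse, with bars of 1 standard error. Values run from 0.52 for Cd14, not called, to 4.61 for Cd68, and the other 8 genes lie between.

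The order of the Ucp1Δ/Δ mice was similar across the 10 genes. Ucp1Δ/Δ mouse 2 was the highest of its genotype for 10 of the 10 genes, and Ucp1Δ/Δ mouse 3 was the lowest for 8, the exceptions being Lyz2 and Aif1, which were lowest in mouse 4. Among WT mice, mouse 2 was the highest for 7 genes and mouse 3 the lowest for 6. The summed CPM of the 10 genes was 66.3, 96.8, 43.1 and 61.8 in WT mice 1 to 4 and 710, 1014, 585 and 618 in Ucp1Δ/Δ mice 1 to 4. Their share of all counts ranged from 0.00414% to 0.00891% across WT mice and from 0.0605% to 0.111% across Ucp1Δ/Δ mice. CPM in Ucp1Δ/Δ mouse 2 stood well above the other 3 mice for Cd68, Lyz2 and Cd53, and close to them for Ptprc.

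Whether the genes changed by unequal amounts within the same libraries was asked with the ratio of each gene to Ptprc, from which library scaling cancels apart from a pseudocount of 0.5 CPM. Of 9 ratios, those of Cd68 and Cd14 separated the genotypes. The ratio of Cd68 to Ptprc was 0.293, 0.788, 0.565 and 0.466 in WT mice 1 to 4 and 1.31, 2.16, 1.13 and 1.17 in Ucp1Δ/Δ mice 1 to 4. All 4 Ucp1Δ/Δ mice were above 1 and all 4 WT mice below it, a difference of 1.49 on the log2 scale (two-sided exact permutation test over mice, p = 0.0286, the smallest that 4 against 4 can give, not adjusted for the 9 ratios). A ratio to Ptprc that was higher in every Ucp1Δ/Δ mouse was found for 0.19% of the tested genes. In summed counts, Cd68 had 25 for the 53 of Ptprc in WT and 779 for 515 in Ucp1Δ/Δ mice.

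The ratio of Cd14 to Ptprc was 0.352, 0.717, 0.652 and 0.266 in WT mice and 0.0813, 0.127, 0.0298 and 0.100 in Ucp1Δ/Δ mice. It was lower in all Ucp1Δ/Δ mice, with a log2 difference of -2.62 (two-sided exact permutation test, p = 0.0286, not adjusted). A lower ratio in every Ucp1Δ/Δ mouse was found for 94.8% of the tested genes, a list that Cd14 was too low to enter. Lyz2 rose by 0.74 more than Ptprc on the log2 scale and Aif1 by 0.84 less, and for both the genotypes overlapped (exact permutation p = 0.0857). With a pseudocount of 2 CPM the genotypes separated for Lyz2, by 0.95 on the log2 scale (exact permutation p = 0.0286), and without WT mouse 1 they separated for Aif1. The log2 differences of Spi1, Mpeg1, Laptm5, Adgre1 and Cd53 against Ptprc ranged from -0.34 to 0.40, and the genotypes overlapped for each. These values depended on the pseudocount. At 2 CPM they were 0.27 for Spi1, -0.06 for Mpeg1, 0.27 for Laptm5, -0.46 for Adgre1 and -0.95 for Cd53, still with overlap. With the sum of 18 pan-leukocyte genes in place of Ptprc, the genotypes separated for Cd68, Lyz2, Cd14, Spi1 and Laptm5, 5 of 10 ratios, and with Laptm5 in its place for Cd68, Cd14 and Aif1. Cd68 separated the genotypes under every denominator and pseudocount tried and in each of the 8 sets that left out 1 mouse. Cd14 did so too, but with 94.8% of the tested genes lower against Ptprc, this was the usual outcome and not a trait of Cd14.

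**Figure D3:**
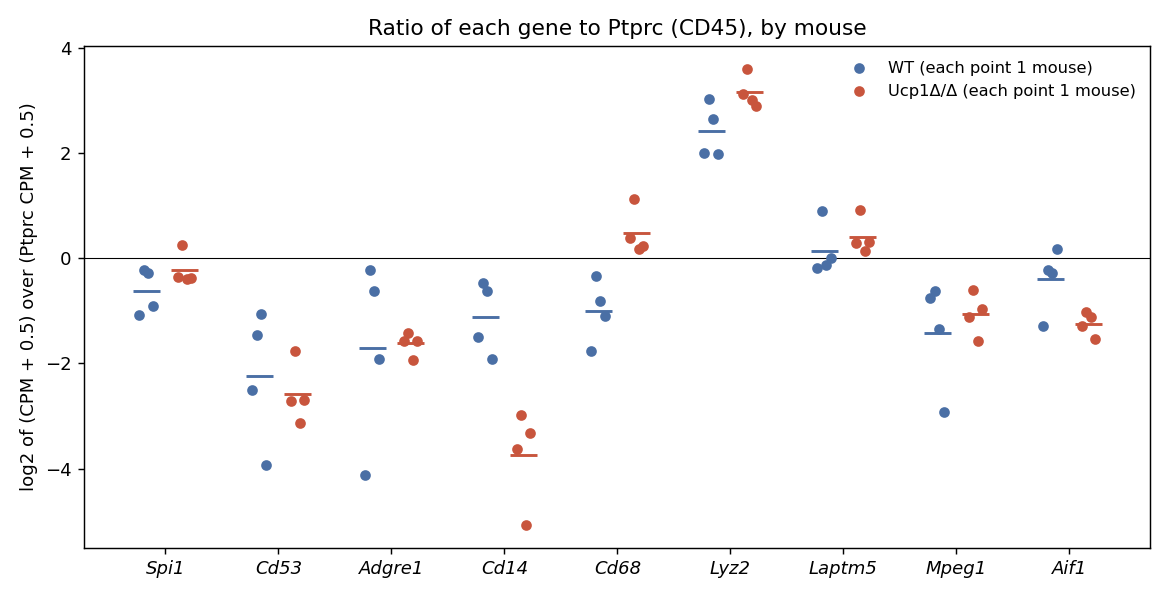
Log2 ratio of each gene to Ptprc, both with 0.5 CPM added, in each mouse, with a line at the mean of each genotype. Cd68 shifts up (mean -1.01 in WT and 0.48 in Ucp1Δ/Δ mice) and Cd14 down (-1.13 and -3.74), while the genotypes overlap for the other 7 genes.

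Further genes of leukocytes and macrophages were higher too. Of 18 further pan-leukocyte genes, 17 were called higher at the filter of 1 count, against 9.81% of all genes, with a median log2FC of 2.32. At the default filter 14 were tested and all were called, against 13.3% of all genes. Only 1 of these passed the filter's minimum in all 4 WT mice, so that count was largely set by the filter. Cd52, a small surface glycoprotein of leukocytes, went from 7.67 ± 2.48 to 68.9 ± 13.3 CPM (log2FC 3.19, SE 0.25, adjusted p = 6.13e-07). Lcp1, the leukocyte plastin, had a log2FC of 3.23 (SE 0.35), and Itgb2, the integrin beta chain of leukocytes, had 2 counts over the 4 WT mice against 120 over the Ucp1Δ/Δ mice. Of 18 further macrophage markers, 14 were called higher at the filter of 1 count, against 9.81% of all genes, with a median log2FC of 2.94. At the default filter 13 were tested, 7 of which passed its minimum in all 4 WT mice, and 12 were called, against 13.3% of all genes. Csf1r, the receptor for the growth factor on which macrophages depend, went from 23.3 ± 3.38 to 166 ± 29.0 CPM (log2FC 2.83, SE 0.19, adjusted p = 2.53e-07). Ctss, a lysosomal protease, went from 10.6 ± 3.15 to 222 ± 75.1 CPM (log2FC 4.40, SE 0.29, adjusted p = 2.04e-07), and C1qa and C1qb, which encode chains of complement C1q, rose by a log2FC of 3.22 (SE 0.24) and 3.19 (SE 0.25). Mertk, a receptor for the uptake of dying cells, overlapped between genotypes, with 14.3 ± 7.09 and 26.2 ± 7.62 CPM (adjusted p = 0.0549), and was called at the filter of 1 count (log2FC 0.88, adjusted p = 0.00540).

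Most tested markers of resident macrophages and 5 of 11 of those of lipid-associated macrophages were called higher. The largest log2FC of the genes named here were in the lipid-associated list. Of 10 resident markers, 9 were tested and 8 of these were called higher, against 13.3% of all genes. Only 3 of the 9 passed the filter's minimum in all 4 WT mice, so that count was partly set by the filter. At the filter of 1 count, 9 of 10 were called higher, against 9.81% of all genes, with a median log2FC of 1.74. Folr2, a folate receptor, had a log2FC of 2.91 (SE 0.38, adjusted p = 5.61e-05), the scavenger receptor Stab1 1.99 (SE 0.24) Cbr2 1.72 (SE 0.27) and the clotting factor subunit F13a1 1.70 (SE 0.27), whereas the haemoglobin scavenger receptor Cd163 was not called (0.88, SE 0.32, adjusted p = 0.0642, and 0.0467 at the filter of 1 count). Of 12 lipid-associated markers, 11 were tested, 8 of which passed the filter's minimum in all 4 WT mice. Of the 11, 5 were called higher, against 13.3% of all genes, with a median log2FC of 0.15. The 6 not called were Fabp5, Lpl, Cd36, Plin2, Ctsb and Ctsd. At the filter of 1 count, 6 of 12 were called higher, against 9.81% of all genes, with a median log2FC of 0.54. DESeq2 called 1 of the list lower. Lgals3, the lectin galectin-3, went from 6.91 ± 2.0 to 336 ± 131 CPM (log2FC 5.61, SE 0.32, adjusted p = 1.29e-07). Gpnmb, a transmembrane glycoprotein of lysosome-rich cells, had a log2FC of 5.44 (SE 0.35), and the lipid receptor Trem2 had 1 count over the 4 WT mice against 284 over the Ucp1Δ/Δ mice. The tetraspanin Cd9 had a log2FC of 2.84 (SE 0.56), and 3.83 without WT mouse 2. Lpl and Ctsd, which brown adipocytes also express, were at 4636 ± 444 and 3528 ± 538 CPM, and at 850 ± 191 and 864 ± 176 CPM, and were not called (adjusted p = 0.121 and 0.953).

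Most markers of other leukocytes were too low to pass the default filter, but Ccr2 and Il7r had 235 and 207 counts over the Ucp1Δ/Δ mice. Of 9 monocyte markers, 4 were tested, and 0 of the 4 passed the filter's minimum in all 4 WT mice. Those called higher were 2 of the 4, against 13.3% of all genes, a count largely set by the filter. They were Ccr2, the receptor by which monocytes leave the marrow (log2FC 2.66, SE 0.42, adjusted p = 0.000286), and Fcgr4 (2.15, SE 0.51, adjusted p = 0.00702). Nr4a1 and Ace overlapped between genotypes and were not called (log2FC 0.55, SE 0.48, and 1.43, SE 0.51), although Ace was called at the filter of 1 count (adjusted p = 0.0124). The monocyte markers called were 5 of 9 at that filter, against 9.81% of all genes, and 4 with DESeq2, which called 1278 of 12619 genes higher. Fcgr4 was not tested without Ucp1Δ/Δ mouse 1 or 2. None of 10 neutrophil markers passed the default filter, their summed CPM was between 1.01 and 8.06 in WT and between 1.72 and 6.01 in Ucp1Δ/Δ mice, and Ly6g, Mpo, Ngp and Camp had no count in any mouse. Of 12 T cell and NK cell markers only Il7r was tested, and it passed the filter through the Ucp1Δ/Δ mice, with no WT mouse over its minimum. Il7r was called higher (log2FC 3.87, SE 0.63, adjusted p = 0.000353, and log2FC 5.24 without WT mouse 2), while Cd3e had 9 counts over the WT mice and 12 over the Ucp1Δ/Δ mice. At the filter of 1 count, 2 of the 12 were called higher, against 9.81% of all genes. The summed CPM of the T cell and NK cell list was between 3.67 and 15.7 in WT and between 18.8 and 51.0 in Ucp1Δ/Δ mice. Of 8 B cell markers only Ighm was tested, with 1 WT mouse over the filter's minimum. Its log2FC was 1.99 (SE 0.50, adjusted p = 0.00971) with overlapping genotypes, and Cd79a had no count in any mouse. The summed CPM of the B cell list was between 3.04 and 6.72 in WT and between 6.87 and 27.9 in Ucp1Δ/Δ mice. Among 8 markers of dendritic cells and 8 of mast cells and eosinophils, the tested genes were Zbtb46 (log2FC -0.12, SE 0.25) and Kit (-1.05, SE 0.52), and neither was called by edgeR or had an unadjusted p under 0.05 at the default filter. At the filter of 1 count Kit had an unadjusted p of 0.0229 and was not called, and the mast cell tryptase Tpsb2 was called higher there and by DESeq2. The part of these cells in the levels of Ptprc, Cd53 and Laptm5 was not tested.

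The tissue around the macrophages differed as well. Of 10 brown adipocyte markers, 4 were called lower and 1 higher, against 7.63% and 13.3% of all genes. Cidea, a lipid droplet protein of brown fat, went from 5948 ± 1634 to 2671 ± 623 CPM (log2FC -1.16, SE 0.23, adjusted p = 0.00211) and Adipoq, the hormone adiponectin, had a log2FC of -0.82 (SE 0.19). Elovl3, a fatty acid elongase, and Plin1, a lipid droplet coat protein, had log2FC of -1.96 (SE 0.48) and -0.91 (SE 0.23), while Dio2, the deiodinase that activates thyroid hormone, was called higher (1.45, SE 0.42, adjusted p = 0.0231), a call lost without WT mouse 1 (adjusted p = 0.0698) and without Ucp1Δ/Δ mouse 3 (adjusted p = 0.0864). Ucp1 was at 2719 ± 1281 and 2152 ± 598 CPM and was not called (adjusted p = 0.481), nor was Fabp4 (log2FC -0.39, SE 0.17). Of 8 stromal progenitor markers, 7 were tested, 4 of which passed the filter's minimum in all 4 WT mice. Of the 7, 6 were called higher, against 13.3% of all genes. Among these were the collagen gene Col1a1 (log2FC 2.39, SE 0.25, adjusted p = 6.53e-06), Dcn (1.27, SE 0.19), Dpt (1.6, SE 0.23) and Ly6a (0.78, SE 0.18), while Pi16 was not called (0.04, SE 0.38). The summed CPM of these 8 markers was between 319.9 and 405 in WT and between 709.6 and 1175 in Ucp1Δ/Δ mice. No endothelial, skeletal muscle or erythroid marker was called by edgeR at the default filter, of 5, 7 and 5 tested, where 2, 0 and 0 had an unadjusted p under 0.05 and DESeq2 called 0 higher in each. Endothelial markers called higher were 2 under total-count scaling and 1 each with voom, with 10 counts in every mouse and without WT mouse 4, and 2 muscle markers were called at the filter of 1 count. Kdr, an endothelial receptor for VEGF, was at 55.4 ± 3.92 and 65.8 ± 6.82 CPM, and Pecam1 had a log2FC of 0.52 (SE 0.19, adjusted p = 0.0647). The haemoglobin genes Hbb-bs and Hba-a1 had log2FC of -0.25 (SE 0.37) and 0.26 (SE 0.23), and the muscle genes Myh4 and Acta1 0.40 (SE 0.94) and 0.53 (SE 0.92). The summed CPM of the muscle markers varied within both genotypes, from 19.7 to 1394 in WT and from 61.0 to 1845 in Ucp1Δ/Δ mice. The part of these other cells in the share of macrophage transcripts was not tested.

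**Figure D4:**
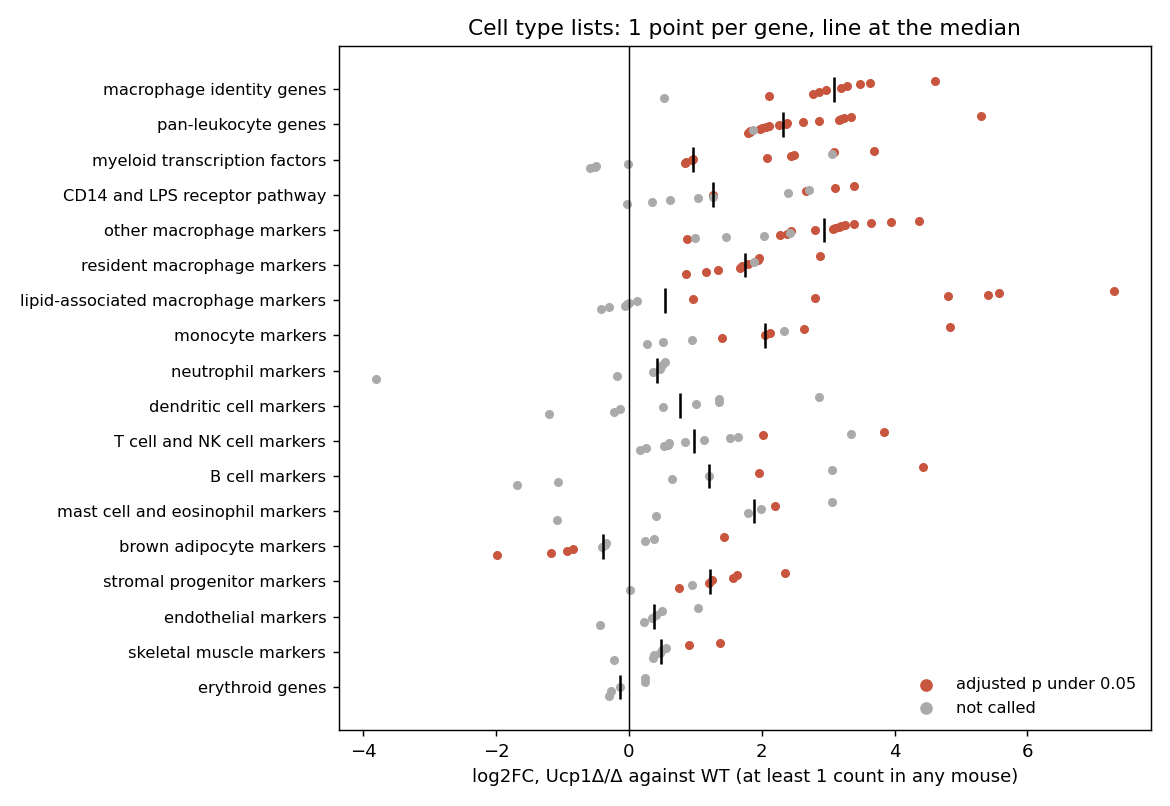
Fitted log2FC of Ucp1Δ/Δ against WT for every gene of each cell type list at the filter of at least 1 count in any mouse, with a line at the median of each list (horizontal axis, log2). The macrophage identity genes (median 3.09), the other macrophage markers (2.94) and the pan-leukocyte genes (2.32) lie to the right of 0. Among the other lists, monocyte (2.05), mast cell and eosinophil (1.89) and stromal progenitor markers (1.23) also have medians above 0. Only the brown adipocyte markers (-0.39) and the erythroid genes (-0.14) have a median below 0.

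The genes outside these lists whose profile over the 8 mice was most like the mean of the macrophage identity genes were sought among 6346 genes, by the root mean square difference of log2 CPM centred on each gene's mean. The smallest differences were those of Gm49123 (0.222), Cd44 (0.224), Clec4a1 (0.234), Nckap1l (0.247) and Pkp2 (0.262), against a median of 1.6. The measure includes the difference between genotypes, and the log2FC of these genes were 2.99, 3.59, 3.36, 3.23 and 3.30 in this order. Cd44 is a hyaluronan receptor, Clec4a1 a lectin receptor of myeloid cells, Nckap1l an actin regulator of blood cells and Pkp2 a protein of desmosomes. Cd44 was at 2.55, 2.24, 1.0 and 2.03 CPM in WT mice and 20.9, 33.0, 16.3 and 21.9 CPM in Ucp1Δ/Δ mice. Cd14, below the filter, was not placed. The other 9 macrophage identity genes were each compared with a mean that includes the gene itself. Among them Spi1 lay closest to this mean (0.131), and Aif1 (0.657), Adgre1 (0.651) and Cd68 (0.641) lay farthest from it.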

How the data were processed

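Bulk RNA-seq of BAT was deposited for 4 WT and 4 Ucp1Δ/Δ mice. The authors aligned single-end reads to mm10 and deposited whole-number counts per Ensembl gene without normalization. The methods name bbduk, STAR and HTseq-counts, and the submitters' processing notes Trimmomatic, HISAT2 and DESeq2. The annotation release and whether the counting used strand are not given in the sources used here. The authors also deposited log2 values, equal to log2 of the count times 1 factor per mouse plus 1, which were used for 1 alternative. A sample sheet was not used.

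Groups were taken from the sample labels. Symbols and positions came from GENCODE M21 (30934 of 31053 identifiers matched), promoters from RefSeq. Counts were filtered with filterByExpr, scaled by TMM and tested on genotype with edgeR 4.0.16 (glmQLFit, glmQLFTest) in R 4.3.3, with Benjamini-Hochberg adjustment over all 8930 genes and a threshold of 0.05. Standard errors were obtained as |log2FC| divided by sqrt(F), and the prior count for log2 CPM was 2. The ratios used two-sided exact permutation tests. The test was checked on simulated data. Limits from 3 counts cover counting error only.

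Alternatives were DESeq2 1.42.0, limma 3.58.1 (voom, and trend on the deposited log2 values), other scalings and filters, a replicate block, and each mouse left out in turn. No libraries were duplicates, since the chi-square between mice of a genotype was 4.69 to 23.2 times that expected from counting. The macrophage genes and all marker lists were chosen with earlier results of these data known. All 10 macrophage genes and Pnpla2 are named, with, per list, up to 4 called genes by adjusted p, up to 3 called the other way and up to 2 not called with the highest CPM, and the 5 genes outside the lists with the most similar profile and a mean of at least 10 CPM. Tlr4, Ly96, Cd3e, Tpsb2 and the genes given as having no count were added after their values were seen. A pan-leukocyte gene that the rule names is not reported here.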

Additional observations from a re-analysis of the deposited data

Results flagged for a closer look

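In 38 sets of 4 mice (log2 CPM of each gene, and log2 ratio of each to Ptprc, in each genotype), 2 held a mouse set apart from the other 3 by Dixon's 95% criterion, where chance gives about 1.9. The log2 ratio of Spi1 to Ptprc was highest in Ucp1Δ/Δ mouse 2, where its gap to the next mouse was 0.937 of the range of the 4 mice. The log2 ratio of Laptm5 to Ptprc was highest in WT mouse 2, where the gap was 0.831 of the range. Both mice were also the highest of their genotype for most of the 10 genes in CPM.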

How the results depend on the processing

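All 146 refitted log2FC of the 9 tested genes, over other scalings, tests and filters, the replicate block and each mouse left out, kept their direction and their side of the threshold. The number of the 10 genes called was 9 in each fit except that with at least 10 counts in every mouse, which tested and called 2 of them and called 1195 genes in all, against 1872. The calls were 2513 with at least 1 count in any mouse and 2060 with DESeq2. The median log2FC of the members lay between 3.08 and 3.58 over these settings. Scaling by total counts alone moved the median of all genes to 0.13. Leaving out 1 mouse gave 1345 to 2155 calls, 9 of the genes called in each case, medians of 2.98 to 3.56, and 2 to 4 ratios to Ptprc without overlap, 4 without WT mouse 2 (Cd68, Lyz2, Cd14 and Laptm5). With the summed pan-leukocyte genes as the denominator, 5 ratios did not overlap. With the replicate number as a block, 1719 genes and 9 of the 10 were called, with a median of 3.25. The numbers do not pair the mice, which are different animals (correlations of deviations from -0.20 to 0.30). Of 213 refitted counts for the other lists, 184 stayed within 1.5 times and 29 moved, mostly under the filters on low counts. The low counts of the WT mice, 0 to 25 per mouse for all but Lyz2, limit the precision of each fold.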
